A study of Mus musculus with 24 samples.

Results

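The voltage-gated calcium and sodium channel genes were examined in the hippocampus of aged mice, as every gene symbol of the count files that begins with Cacna1 or Cacna2, is one of Cacnb1 to Cacnb4 or Cacng1 to Cacng8, or consists of Scn, a number and the letter a or b. This rule used names only and no measured value, and it found 40 of 49568 symbols, 26 of calcium channel genes and 14 of sodium channel genes. Of these, 37 passed the filter on low counts and were tested among 20187 genes. The remaining 3 are known mainly from muscle and sensory neurons. Cacng1, the gamma subunit of the skeletal muscle calcium channel, had 36 counts in all over 21 libraries, Scn4a, the skeletal muscle sodium channel, had 85, and Scn11a, a sodium channel of pain-sensing neurons, had 93.

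Voltage-gated calcium and sodium channels open when the membrane is depolarised, sodium channels to carry the action potential and calcium channels to let in the calcium that triggers transmitter release, dendritic signalling and transcription. Each channel is built around a large pore-forming alpha protein, to which smaller auxiliary proteins (alpha2delta and beta for calcium channels, other beta proteins for sodium channels) bind and set its traffic and gating. Most of the proteins of the Cacng group are not calcium channel subunits but TARPs, which escort AMPA-type glutamate receptors to the synapse.

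The study asked how enriched housing acts on the ageing brain and whether this needs MSK1, a kinase that phosphorylates the transcription factor CREB and histone H3 after neuronal activity. Poly(A) RNA was sequenced from the hippocampus of individual male mice on a C57-Bl/6J background aged 21 to 23 months, wild-type (WT) or MSK1 kinase dead (KD), the latter homozygous for a point mutation that inactivates the N-terminal kinase domain of the endogenous protein. WT and MSK1 KD mice were bred as separate homozygous lines, so line and genotype cannot be told apart. Mice were kept in standard cages throughout or moved at 18 months to large group cages with a running wheel, ladder and toys. This gave 6 libraries of 1 mouse each in 4 groups, WTSH and KDSH for standard housing of WT and MSK1 KD mice and WTEE and KDEE for enriched housing. The p values measure the spread between these mice. The study allocated whole cages to enrichment, and the cage of each mouse is not given. Mice of 1 group may share a cage, so cage and housing cannot be told apart. Samples 4 and 7 of WTSH and sample 6 of KDSH were excluded by the study, which left 4 WTSH, 6 WTEE, 5 KDSH and 6 KDEE libraries. In both genotypes, samples 1 to 8 were standard-housed and samples 9 to 16 enriched. Only samples 17 to 24 held both housings. What the numbering stands for is not given, so differences that follow it cannot be fully told apart from housing.

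Depth over these 21 libraries lay between 27410239 and 71907130 read pairs on genes (median 47549989), and the channel genes took between 0.347% and 0.507% of them. The MSK1 gene itself, Rps6ka5, ranged from 21.1 to 25.2 CPM (read pairs per 1000000 on genes) in WTSH, from 13.9 to 24.9 in WTEE, from 23.7 to 24.8 in KDSH and from 23.0 to 24.4 in KDEE, and a point mutation cannot be seen in such counts, so they do not check the genotype. Markers of hippocampal excitatory neurons were present in every group, with a summed level of 3913 CPM in WTEE sample 10 and of 5651 to 6967 CPM in the other 20 libraries. Levels below are CPM after TMM scaling, and levels compared between genes are RPKM, the same values divided by the length of all annotated exons of the gene in kb.

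Levels between genes spanned a wide range, and the TARP and calcium channel beta groups stood above every group of pore-forming genes. Summed over its members, the gamma and TARP group reached a mean of 161 RPKM over 21 libraries, the calcium channel beta group 110, the sodium channel alpha group 65.3, CaV2 49.1, CaV3 34.9, alpha2delta 32.1 and CaV1 11.3. RPKM depends on the exon length used, since reads of a gene with many alternative ends are divided by all of them.

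**Figure D1:**
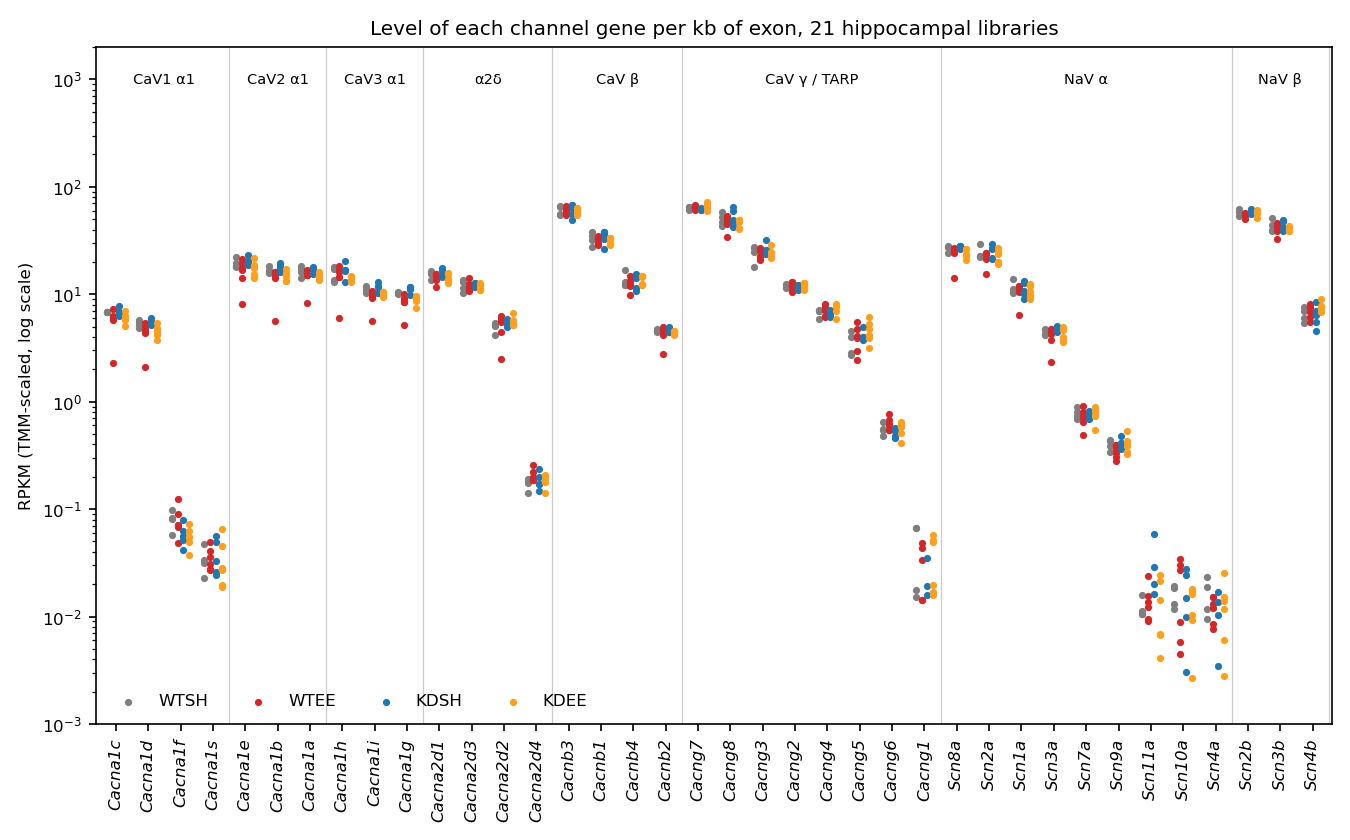
Level of 38 channel genes in RPKM (TMM-scaled CPM per kb of exon, log scale) in 21 libraries, 1 point per library, coloured by group and ordered within subfamily by mean level. Values of 0 are not drawn. Levels run from Cacng7, with a mean of 64.3 RPKM, down to muscle and sensory neuron channels below 0.1 RPKM, and 1 WTEE library lies below the others for most pore-forming genes.

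Among the L-type (CaV1) pore genes, which couple synaptic activity to transcription, Cacna1c was highest with 6.27 ± 1.09 RPKM (SD, n = 21 here and below) and Cacna1d followed with 4.89 ± 0.85, and this order held in 21 of 21 libraries. They made up a median of 55.9% and 43.2% of the summed CaV1 level. The retinal Cacna1f (0.0672 RPKM) and the skeletal muscle Cacna1s (0.0353 RPKM) were near the bottom of the list. About 19.98% of the exon bases of Cacna1s also lie in an annotated gene on the other strand. Strand was not used in counting, so reads there would be dropped as ambiguous if that gene was counted too.

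The CaV2 genes, whose channels drive transmitter release, were close to one another. Cacna1e, the R-type channel, had 18.1 ± 3.42 RPKM and was above Cacna1b, the N-type channel (15.6 ± 2.79), in 19 of 21 libraries. Cacna1b was above Cacna1a, the P/Q-type channel (15.5 ± 2.13), in 12 of 21, so that this pair did not separate beyond its spread. Of the CaV3 (T-type) genes, which open near the resting potential, Cacna1h had 14.99 ± 2.87 RPKM, Cacna1i 10.4 ± 1.44 and Cacna1g 9.54 ± 1.47. Cacna1i was above Cacna1g in 19 of 21 libraries.

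Among the sodium channel alpha genes, Scn8a (NaV1.6, the channel of the mature axon initial segment) had 25.2 ± 3.24 RPKM and Scn2a (NaV1.2, of excitatory neurons) 23.3 ± 3.36, with Scn8a above Scn2a in 15 of 21 libraries. These genes made up a median of 37.9% and 35.3% of the summed sodium channel alpha level. Scn1a, the main channel of fast-spiking interneurons, contributed a median of 16.7%, and Scn3a, mainly a channel of the developing brain, 6.52%. Scn7a (0.75 RPKM) and the sensory neuron channel Scn9a (0.389) were much lower, and Scn10a, another sensory neuron channel, had 0.0156 RPKM with at most 15 counts in a library.

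Of the auxiliary genes, Cacnb3 led the calcium channel beta group (59.9 ± 5.22 RPKM, a median of 54.0% of the group), ahead of Cacnb1 (32.6), Cacnb4 (13.2) and Cacnb2 (4.46), with each step in the same order in 21 of 21 libraries. About 15.99% of the exon bases of Cacnb4 overlap an antisense gene. Cacna2d1, a binding site of gabapentin, led the alpha2delta group with 14.7 ± 1.43 RPKM, above Cacna2d3 (11.95) and Cacna2d2 (5.27), whereas the retinal Cacna2d4 had 0.188. Cacng7 (64.3 ± 3.09 RPKM) and Cacng8 (48.5 ± 6.76), both TARPs, were the highest of their group. Stargazin itself, Cacng2, had 11.9 ± 0.754. Cacng7 varied least of all members, with a coefficient of variation over 21 libraries of 4.81%, followed by Scn2b with 5.65%.

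A single library of the 21 stood apart for these genes. In WTEE sample 10 the value was the lowest of the 21 libraries for 24 of the 37 tested channel genes (64.9%), against 29.0% of all tested genes. The median ratio of this library to the mean of the other 5 WTEE libraries was 0.689 over the channel genes and 0.990 over all tested genes. It was 0.366 for Cacna1c, 0.369 for Cacna1b and 0.377 for Cacna1h. Over the subfamilies the median ratio ran from 0.458 for CaV2 to 0.971 for the gamma and TARP group. The summed excitatory neuron markers were also lowest in this library, which held the lowest value of 2 of the 6 markers, and its share of ambiguous read pairs (6.57%) was the highest of the 21. Structural RNA took 1.38% of its counts, less only than the 2.49% in WTSH sample 2 among the kept libraries. Markers of the choroid plexus summed to 5193 CPM in it, with all 24 libraries scaled together. They were also high in WTSH sample 19 (4327), WTEE sample 13 (5855), KDEE sample 12 (9567) and KDEE sample 14 (2635). The part of these differences in the channel values was not tested beyond fits with a covariate.

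**Figure D2:**
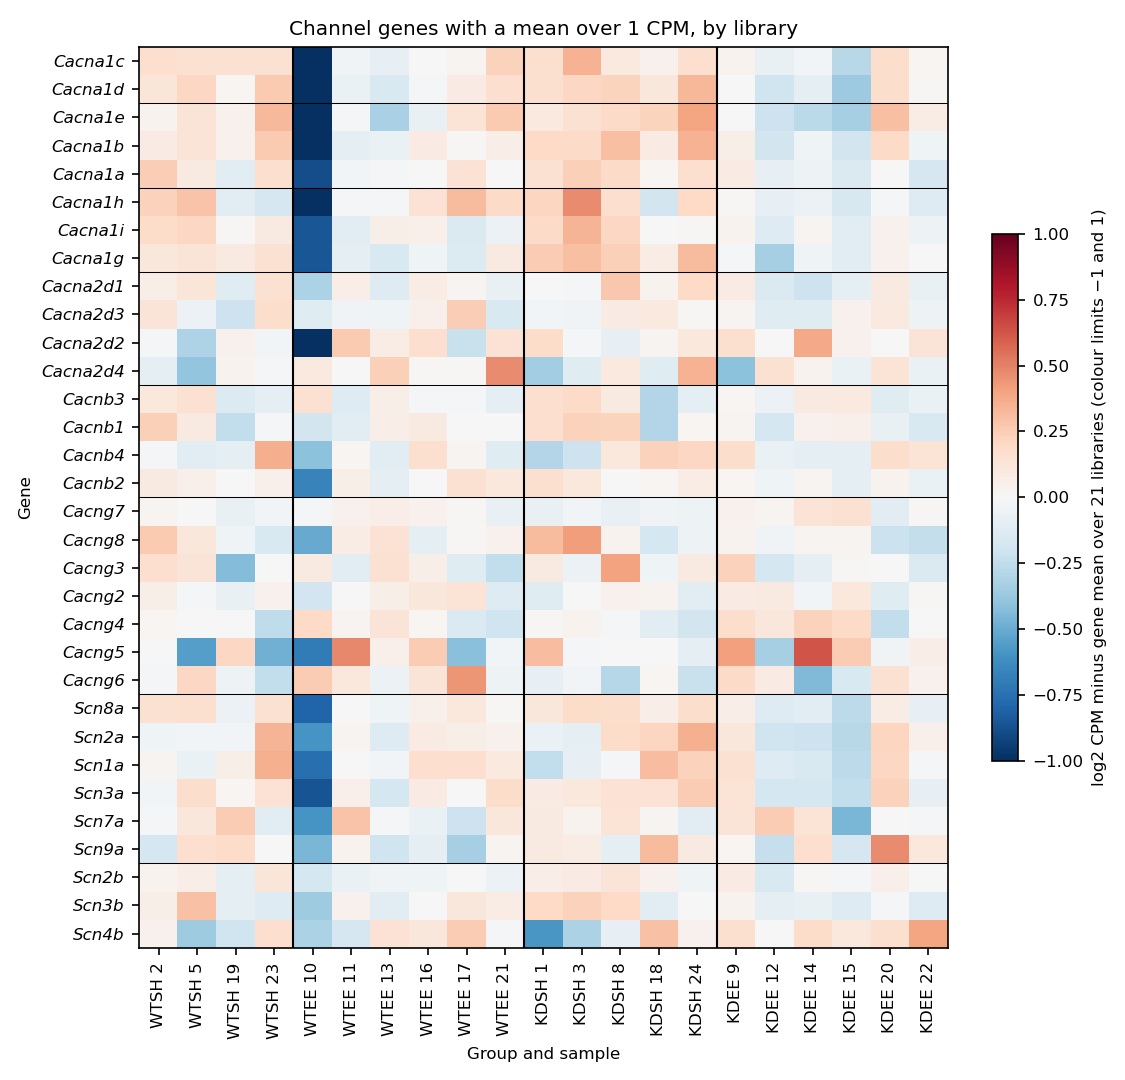
Log2 CPM of 32 channel genes minus each gene's mean over 21 libraries, by group and sample, with colour limits at −1 and 1. The 3 tested genes under 1 CPM on average (Cacna1f, Cacna1s, Scn10a) are not drawn. WTEE sample 10 is blue over nearly all pore-forming genes of those drawn.

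The same library differed by transcript length in genes outside the channel families. Over 900 other protein-coding genes whose longest transcript exceeds 8 kb, the median deviation from the gene mean (log2 CPM) was −0.64 in WTEE sample 10, and lay between −0.19 and 0.16 in the other 20 libraries, the lowest of which was KDEE sample 15. Among the channel genes the log2 ratio of WTEE sample 10 to the other WTEE libraries correlated with the log2 length of the longest transcript (Pearson r = −0.66, n = 37 genes that share the same libraries). Auxiliary genes did not all follow length. Cacnb4 is long (8225 bases) and had a ratio of 0.753. The shorter Cacna2d2 (5807 bases) and Cacng8 (1897 bases) had lower ratios of 0.450 and 0.689, whereas Cacng4 (3500 bases) had 1.17. Pore-forming transcripts are mostly the longer ones, so length and role cannot be told apart here. The main values on enrichment are therefore given with and without this library.

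**Figure D3:**
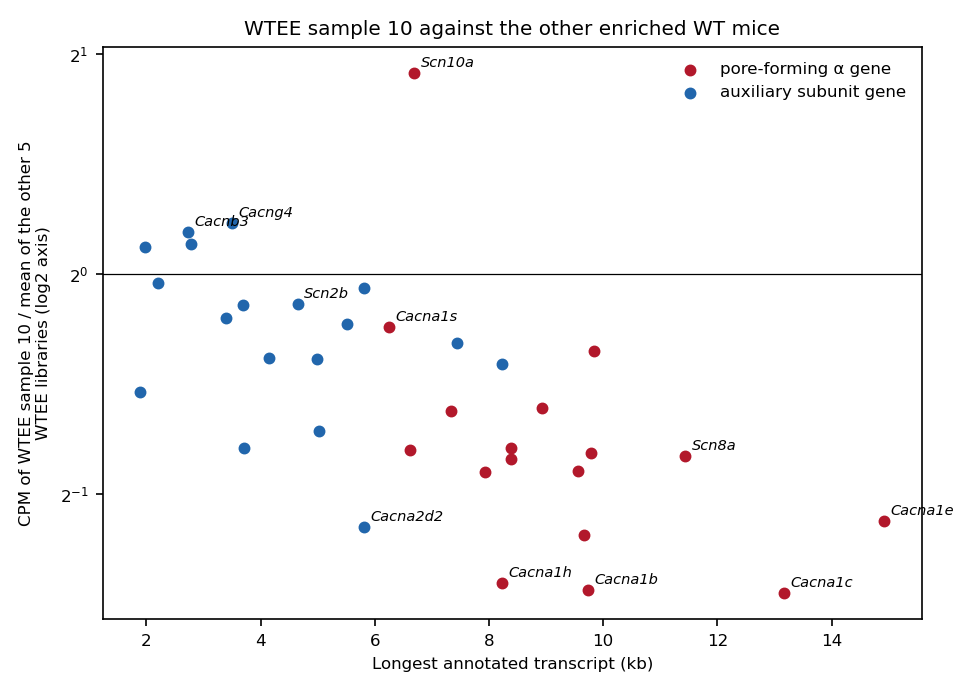
Ratio of CPM in WTEE sample 10 to the mean of the other 5 WTEE libraries (log2 axis) against the length of the longest annotated transcript in kb, for 35 tested channel genes, with pore-forming and auxiliary genes in separate colours. Among the long pore-forming genes, Cacna1c lies at 0.366. Scn10a and Cacna1s rest on few counts.

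The 3 libraries that the study left out were set beside the kept libraries of their own groups, with all 24 scaled together. KDSH sample 6 lay below all 5 kept KDSH values for 18 of 37 members (48.6%, against 25.6% of all tested genes), among them every CaV2 gene, Cacna1c, Cacna1d, Cacna1g and 7 sodium channel alpha genes, and above them for 5 (13.5%, against 26.5%), including Cacnb3 and Cacng7. WTSH sample 7 lay above all 4 kept WTSH values for 15 members (40.5%, against 25.6% of all tested genes), again with every CaV2 gene, and below them for 3 (8.11%, against 28.6%). WTSH sample 4 lay above for 8 (21.6%, against 26.4%) and below for 6 (16.2%, against 29.7%), both under the share of all genes. Structural RNA took 22.8% of the counts in WTSH sample 4, 22.6% in sample 7 and 5.5% in KDSH sample 6, against at most 2.49% in the other libraries.

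Whether enrichment changed these genes was asked first in WT mice. No member passed the thresholds between WTEE and WTSH (adjusted p under 0.05 and absolute log2 fold change over 0.38), with edgeR's quasi-likelihood test or with DESeq2, where edgeR called 0% of all tested genes and DESeq2 0.00529%. At an unadjusted p under 0.05, 2 of 37 members had a lower level (5.41%, against a background of 2.6% of all genes lower) and none a higher one (background 3.95%). Both encode T-type channels. In bulk tissue, fewer cells of a type and less RNA per cell cannot be told apart.

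Cacna1g measured 103, 104, 101 and 106 CPM in the 4 WTSH libraries (samples 2, 5, 19 and 23) and 52.8, 89.7, 86.0, 92.7, 86.6 and 101 CPM in the 6 WTEE libraries (samples 10, 11, 13, 16, 17 and 21). Only sample 21 of the enriched WT mice reached the lowest standard-housed value. The log2 fold change was −0.29 (SE 0.115, unadjusted p = 0.0197, adjusted p = 0.651 by edgeR), and −0.18 (SE 0.0649, unadjusted p = 0.0108, adjusted p = 0.9995 by edgeR) without WTEE sample 10. Cacna1i, also a T-type gene, measured 115, 117, 102 and 108 CPM in WTSH and 55.9, 93.3, 105, 105, 91.5 and 97.2 CPM in WTEE, and the ranges overlapped. Its log2 fold change was −0.27 (SE 0.118, unadjusted p = 0.0299, adjusted p = 0.651), and −0.16 without sample 10. Next by p was the L-type gene Cacna1d, with −0.29 (SE 0.160, unadjusted p = 0.0847) and −0.15 without sample 10.

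By subfamily, the median log2 fold change in WT mice was −0.26 over CaV2, −0.27 over CaV3, −0.15 over CaV1 and −0.13 over the sodium channel alpha genes, whereas it was 0.00 over alpha2delta, −0.07 over the calcium channel beta genes, 0.03 over the gamma and TARP genes and 0.01 over the sodium channel beta genes. Over all 37 members it was −0.09, with 25 below 0, against 0.01 over all tested genes, of which 48.5% lay below 0. Without WTEE sample 10 the median over 36 members was −0.02, with 21 (58.3%) below 0, against 50.1% of all tested genes. Most of the shift in WT mice thus rested on this library. The medians were then −0.12 over CaV2, −0.16 over CaV3, −0.01 over CaV1 and −0.05 over the sodium channel alpha genes.

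In MSK1 KD mice the same question gave no call either, with edgeR (0% of all tested genes called) or DESeq2 (0.0558%). At an unadjusted p under 0.05, 1 of 37 members was lower (Cacna1g, 2.70%, against a background of 5.98% of all genes lower) and 1 higher (Cacng7, against 5.64% higher). Without WTEE sample 10, whose spread enters the shared estimate although it is not a KD library, 12 members were lower and 2 higher at that level. This was 14 of 36 members in either direction. The share of all genes at unadjusted p under 0.05, in either direction, rose from 11.6% to 22.1%. That share was not split by direction without sample 10. Those 12 were 10 pore-forming genes (every CaV2 and CaV3 gene, Cacna1c, Cacna1d, Scn3a and Scn8a) together with Cacna2d1 and Scn3b. The smallest adjusted p of a member was then 0.0794, for Cacna1g.

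Cacna1g measured 114, 118, 113, 100.3 and 119 CPM in the 5 KDSH libraries (samples 1, 3, 8, 18 and 24) and 94.3, 75.9, 92.4, 88.1, 98.1 and 95.3 CPM in the 6 KDEE libraries (samples 9, 12, 14, 15, 20 and 22). The groups did not overlap, as was the case, in the lower direction, for 0.936% of all tested genes, and Cacna1g was the only member of which this was true. In WT mice the groups did not overlap, in the lower direction, for 0 of 37 members and 0.505% of all genes. Its log2 fold change was −0.31 (SE 0.108, unadjusted p = 0.00886, adjusted p = 0.367 by edgeR), a change of −19.4%. Cacng7 measured 149, 154, 149, 153 and 151 CPM in KDSH and 161, 160.0, 172, 175, 146 and 158 CPM in KDEE, where 5 of the 6 enriched values lay above all standard-housed ones and sample 20 below them. The log2 fold change of this TARP gene was 0.10 (SE 0.0458, unadjusted p = 0.0419, adjusted p = 0.419). Scn4b, a beta subunit linked to resurgent sodium current, measured 22.8, 27.4, 32.3, 41.7 and 35.1 CPM in KDSH and 38.1, 34.2, 38.7, 36.6, 38.1 and 44.8 CPM in KDEE, with overlapping ranges and a log2 fold change of 0.27 (SE 0.130, unadjusted p = 0.0522).

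Of the 37 members, 28 (75.7%) had a log2 fold change below 0 in MSK1 KD mice, against 49.6% of all tested genes. All 18 tested pore-forming genes had a log2 fold change below 0 in MSK1 KD mice, with a median of −0.19, and 15 of the 18 in WT mice, with a median of −0.18. Without WTEE sample 10, 17 pore-forming genes were tested, and the median was −0.18 in MSK1 KD mice (17 below 0) but −0.08 in WT mice (13 below 0). Of all tested genes, 48.1% were then below 0 in MSK1 KD mice and 50.1% in WT mice. In all 21 libraries the 19 auxiliary genes had medians of −0.02 in MSK1 KD mice and −0.01 in WT mice, with 10 of 19 below 0 in each genotype. Without WTEE sample 10 the medians of these 19 were −0.01 in MSK1 KD mice (10 below 0) and 0.005 in WT mice (8 below 0). KDEE and KDSH share no library with WTEE and WTSH, but the sample numbers follow housing in the same way in both genotypes. Of the 37 members, 24 (64.9%) had a log2 fold change below 0 in both genotypes, against 34.3% of all tested genes, and 32 (86.5%) had the same direction in both, against 70.6%. Across members the log2 fold changes of both genotypes correlated with r = 0.48 (n = 37) and with r = 0.51 (n = 36) without WTEE sample 10. Genes that share a length class or cell type are not independent points, and no p value is given.

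**Figure D4:**
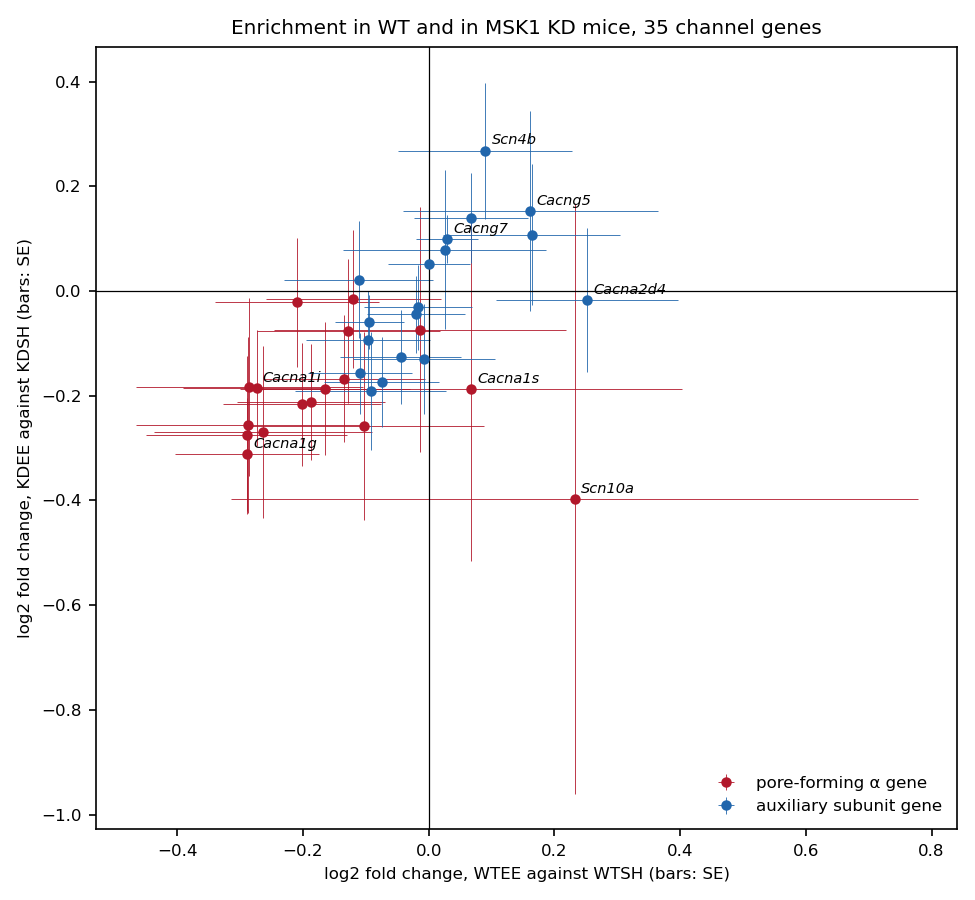
Log2 fold change with enrichment in WT mice (WTEE against WTSH, horizontal) and in MSK1 KD mice (KDEE against KDSH, vertical) for 35 tested channel genes, with bars of 1 SE and pore-forming and auxiliary genes in separate colours. Pore-forming genes gather in the lower left, with Cacna1g at −0.29 and −0.31. Scn10a and Cacna1s rest on low counts and have wide bars.

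When the effects of enrichment in both genotypes were averaged, there was again no called member with either tool, and edgeR called 0.00495% of all genes (1 gene) and DESeq2 0.147%. At an unadjusted p under 0.05, 8 of 37 members were lower (21.6%, against a background of 9.13%) and none higher (background 9.77%). Of the 37, 27 (73.0%) had an averaged log2 fold change below 0, against 48.1% of all genes. Of the 8, 7 were pore-forming: Cacna1g, Cacna1i, Cacna1d, Scn8a, Cacna1a, Cacna1e and Cacna1b. The eighth was Cacna2d1. Cacna1g had rank 103 among all 20187 tested genes by p, with an averaged log2 fold change of −0.30 (SE 0.0787, unadjusted p = 0.00101, adjusted p = 0.179 by edgeR and 0.0519 by DESeq2). Cacna1i had −0.23 (SE 0.0808, unadjusted p = 0.00969) and Cacna1d −0.28 (SE 0.1099, unadjusted p = 0.0178). Log2 fold changes of the other 5 lay between −0.27 for Cacna1b and −0.13 for Cacna2d1.

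Leaving out WTEE sample 10 lowered both the size and the error of the Cacna1g value, to −0.24 (SE 0.0437, unadjusted p = 1.75e-05, adjusted p = 0.0551 by edgeR). Over the other settings tried, its averaged log2 fold change lay between −0.33 and −0.16 and its adjusted p between 0.0519 and 0.754, so that it stayed on the same side of 0 and did not pass the threshold in any of them. The smallest value, −0.16, came with the level of long transcripts in each library as a covariate. Cacna1i and Cacna1d moved more, to −0.11 and −0.07 with that covariate, and to −0.17 and −0.21 without WTEE sample 10 (adjusted p over all settings from 0.0983 to 0.792 and from 0.103 to 0.795). Without sample 10, of 36 members 9 were lower and 2 higher at an unadjusted p under 0.05. This level was reached by 18.8% of all genes in either direction, a share not split by direction. The median over members was −0.05 in place of −0.08.

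Scn8a, the highest sodium channel alpha gene, measured 437, 439, 378 and 438 CPM in WTSH, 226, 393, 383, 407, 423 and 397 in WTEE, 425, 448, 444, 413 and 445 in KDSH and 412, 361, 365, 329, 415 and 371 in KDEE. WTEE sample 10 was far below every other library, and the groups of both genotypes overlapped between housings. The averaged log2 fold change was −0.20 (SE 0.0807, unadjusted p = 0.0220, adjusted p = 0.232 by edgeR). Cacna1e, the highest CaV2 gene, measured 457, 488, 459.5 and 558 CPM in WTSH, 206, 442, 356, 425, 489 and 534 in WTEE, 477, 495, 509, 519 and 585 in KDSH and 444, 387, 369.9, 354, 548 and 470.1 in KDEE. Its values also overlapped in both genotypes, with KDEE sample 20 among the highest.

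Cacna1c, the main L-type gene, was tight in WTSH, with 146, 145, 144 and 144 CPM, and measured 48.5, 127, 123, 129, 132 and 153 in WTEE, 145, 166, 139, 134 and 146 in KDSH and 134, 123, 127, 108, 147 and 132 in KDEE. Sample 21 in WTEE and sample 20 in KDEE lay within or above the standard-housed ranges, and no comparison of all 21 libraries reached an unadjusted p under 0.05. Cacna1h, the highest T-type gene, measured 168, 174, 133 and 127 CPM in WTSH, 58.9, 141, 142, 158, 178 and 163 in WTEE, 166, 198, 160.4, 126 and 164 in KDSH and 144, 135, 138, 128, 142 and 131 in KDEE, so that the KDSH values spanned all KDEE values. Cacna2d1 measured 190.1, 198, 167 and 202 CPM in WTSH, 146, 191, 167, 192, 185 and 173 in WTEE, 182, 181, 219, 187 and 209 in KDSH and 193, 164, 158, 170.4, 194 and 173 in KDEE, with an averaged log2 fold change of −0.13 (SE 0.0570, unadjusted p = 0.0291).

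The highest calcium channel beta gene had an averaged value near 0. Cacnb3 measured 258, 266, 217 and 224 CPM in WTSH, 266, 218, 249, 236, 238 and 224 in WTEE, 269, 274, 254, 195 and 225 in KDSH and 242, 230.1, 254, 256, 219.7 and 228 in KDEE, with an averaged log2 fold change of −0.02 (SE 0.0592). For Cacng7, the highest TARP gene, the WTSH values were 159.5, 157, 149 and 154 CPM and the WTEE values 154, 162, 165, 162, 158 and 149, and its log2 fold change in WT mice was 0.03 (SE 0.0488).

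**Figure D5:**
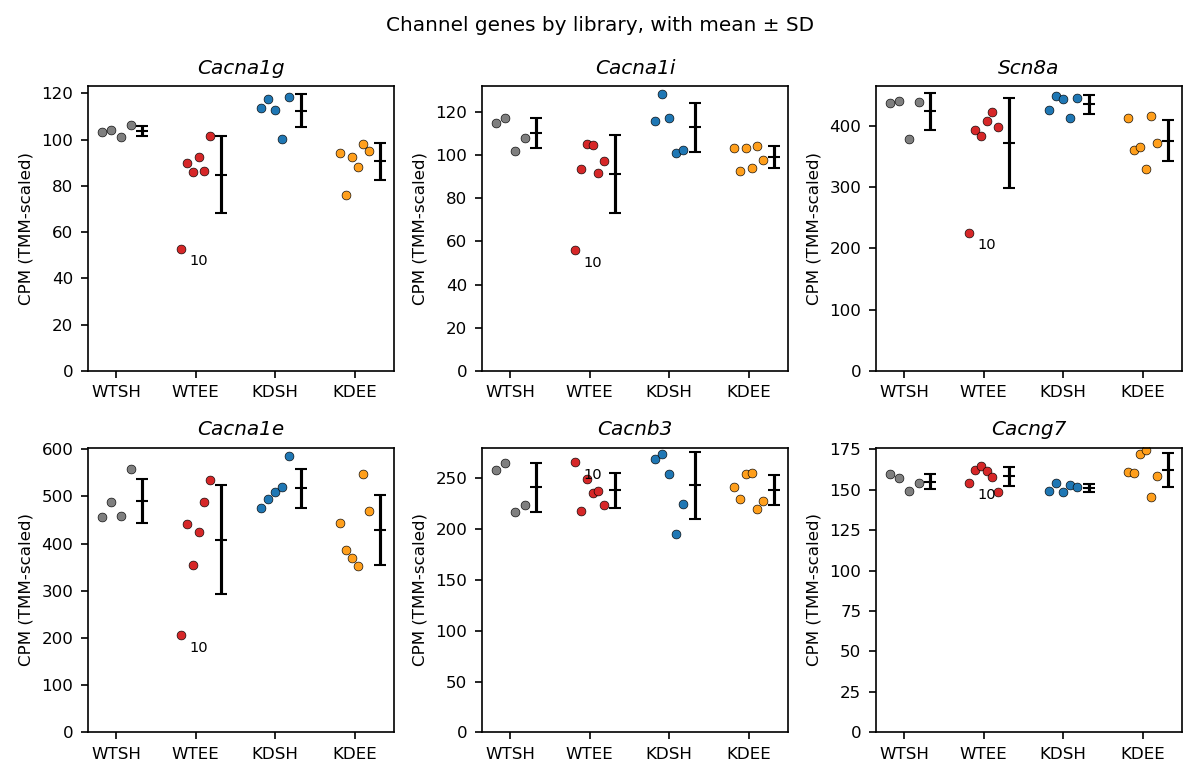
CPM by library in the 4 groups for Cacna1g, Cacna1i, Scn8a, Cacna1e, Cacnb3 and Cacng7, with the mean and SD of each group beside the points and WTEE sample 10 marked. For Cacna1g the 6 KDEE values lie below the 5 KDSH values, whereas the groups overlap for the other genes.

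Enrichment values moved with transcript length over the whole transcriptome. With the genotypes averaged, the median log2 fold change was 0.13 over 3176 protein-coding genes with a longest transcript under 2 kb and fell by class to −0.13 over 914 genes above 8 kb. The 14 channel genes above 8 kb had a median of −0.19. Without WTEE sample 10 the medians were −0.08 over all genes above 8 kb and −0.13 over those channel genes. In MSK1 KD mice the medians above 8 kb were −0.11 over all genes and −0.19 over channel genes. Over the 37 members the averaged log2 fold change correlated with log2 transcript length with r = −0.61 (n = 37), or −0.48 (n = 36) without sample 10. The part of transcript length in these values was not tested beyond the fit with a covariate.

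Values of cell type markers were set beside housing too, and by edgeR no marker was called in any comparison. Choroid plexus markers had a median log2 fold change of 3.85 in MSK1 KD mice and 0.56 in WT mice. In MSK1 KD mice 8 of 8 were higher at unadjusted p under 0.05, against 5.64% of all genes. Summed levels were 31.6 to 4436 CPM in WTSH, 47.1 to 5986 in WTEE, 26.9 to 109 in KDSH and 88.9 to 9770 in KDEE. In KDEE only samples 12 and 14 were high, and the median sums were 43.1 CPM in KDSH and 117 in KDEE. Oligodendrocyte markers had a median of 0.24 with genotypes averaged (4 of 5 at unadjusted p under 0.05, higher, against 9.77% of all genes). Their summed levels were 4833 to 7129 CPM in WTSH, 5261 to 6521 in WTEE, 4552 to 6431 in KDSH and 5536 to 6757 in KDEE. Neuron markers had a median of −0.03 with genotypes averaged and of −0.02 in each genotype, with none of 6 at unadjusted p under 0.05 and summed levels of 4555 to 5828 CPM over the 21 libraries. The averaged medians were −0.01 for excitatory neurons, 0.15 for interneurons, 0.00 for astrocytes, 0.06 for oligodendrocyte precursors, 0.05 for microglia, 0.12 for endothelial and mural cells, 0.17 for structural RNA and −0.39 for pituitary, the last with summed levels of 2.60 to 2.88 CPM in WTSH and up to 246 in KDSH (Cga was at 0 in KDEE). The part of tissue composition in the channel values was not tested beyond the fit with the choroid plexus gene Ttr as a covariate. In that fit 2 members in place of 8 had an unadjusted p under 0.05 with genotypes averaged. The share of all genes at that level was not counted in it, so the fall cannot be read as particular to the members.

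Whether the response to enrichment depended on MSK1 was tested as the difference between the enrichment effects of WT and MSK1 KD mice. Neither tool called a member, and edgeR called 0% of all tested genes (DESeq2 0.0669%) and gave no member an unadjusted p under 0.05, a level reached by 3.26% of all genes. The smallest unadjusted p belonged to Cacna2d4, with a difference of 0.27 (log2, WT minus KD, SE 0.199, unadjusted p = 0.191). Scn9a had −0.19 (SE 0.180), and both are low in this tissue. For Cacna1g the difference was 0.02 (SE 0.158), and 0.12 (SE 0.0877, unadjusted p = 0.176) without WTEE sample 10. Without that library the median over 36 members was 0.09, with 26 above 0 and 10 (27.8%) below. Over all tested genes the median was −0.01, with 52.2% below 0. No member was called, and 1 had an unadjusted p under 0.05, a level reached by 4.49% of all genes. This was Cacna1h, with 0.31 (SE 0.142, unadjusted p = 0.0419, adjusted p = 0.972 by edgeR).

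Comparison of the genotypes under standard housing gave no call in either tool, with 0% of all tested genes called by edgeR and by DESeq2 and no member at an unadjusted p under 0.05 (background 1%). The smallest unadjusted p was that of Cacna1f, which measured 0.729, 0.744, 0.527 and 0.896 CPM in WTSH and 0.574, 0.508, 0.717, 0.376 and 0.464 in KDSH, with a log2 fold change of −0.45 (SE 0.249, unadjusted p = 0.0835). Cacng3, a TARP gene, had 0.12 (SE 0.117). Over the 37 members the median was 0.05, with 9 (24.3%) below 0, against 50.1% of all tested genes. This median moved with the settings, as it was 0.0036 without WTSH sample 19, −0.01 with all 24 libraries and −0.02 with Ttr as a covariate. Cacng3 was also at 0.0036 without WTSH sample 19.

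Between enriched WT and enriched MSK1 KD mice, again no member was called by either tool (0% of all tested genes by edgeR, 0.367% by DESeq2), and 1 of 37 (2.70%, against a background of 3.21% higher in WT) had an unadjusted p under 0.05. This was Cacna1f, a retinal channel gene at the edge of detection here, which measured 0.441, 0.643, 0.646, 0.815, 1.12 and 0.618 CPM in WTEE and 0.496, 0.563, 0.656, 0.341, 0.448 and 0.502 in KDEE, with at most 63 counts in any of the 21 libraries. Its log2 fold change was 0.51 (SE 0.216, unadjusted p = 0.0271, adjusted p = 0.853 by edgeR), and the ranges overlapped. Scn9a had −0.24 (SE 0.117) and Cacna2d4 0.17 (SE 0.129). Averaged over housings, Cacna1f was −0.48 (log2, KD against WT, SE 0.165, unadjusted p = 0.00799, adjusted p = 0.9996 by edgeR), the only member with an unadjusted p under 0.05 (2.70%, against a background of 1.14% lower), followed by Scn9a with 0.14 and Cacng5 with 0.21. No member was called in this comparison by either tool, and both called 0% of all genes.

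CREB binds the cyclic AMP response element (CRE), so the promoter windows of the channel genes were searched for it in RefSeq sequence of GRCm38.p6, from 250 bases before to 50 after each gene start. Windows were at hand for 30 of the 40 genes, 41 in all. The full element TGACGTCA, which reads the same on both strands, was in none of the 41 windows and in 1.79% of all 32851. Its core TGACG, searched on both strands as TGACG or CGTCA (which the full element contains), was in 6 of the 41 windows (14.6%), those of Cacna1b, Cacna1c, Cacna1i, Cacna2d1, Cacnb2 and Scn10a, and in 20.8% of all windows. Cacna1b, Cacna1i and Cacna2d1 are among the 8 genes with a lower averaged value at an unadjusted p under 0.05, and the 65 bases around the core are shown for these, 5′ to 3′ along the gene, with the core in capitals.
Cacna1b (chr2:24763205-24763269, minus strand, core 87 bases before the start): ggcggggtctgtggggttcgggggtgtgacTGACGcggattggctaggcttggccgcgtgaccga
Cacna1i (chr15:80287136-80287200, plus strand, core 72 bases before the start): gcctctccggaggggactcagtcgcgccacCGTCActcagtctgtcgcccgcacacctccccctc
Cacna2d1 (chr5:15934515-15934579, plus strand, core 146 bases before the start): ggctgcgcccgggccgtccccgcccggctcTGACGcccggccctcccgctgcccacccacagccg
A match is a description of the letters and not a measured binding site, and the share of windows with the core was below that of all windows. No window was at hand for Cacna1g, which lies on chromosome 11 (94408391 to 94474198, minus strand, GRCm38, GENCODE M21).

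The genes whose level followed Cacna1g most closely over 21 libraries (Pearson r of log2 CPM) were Tmem63c (0.96), Plxna3 (0.96), Hspa12a (0.96), Tub (0.96) and Pxdn (0.95), and without WTEE sample 10 the values were 0.91, 0.90, 0.91, 0.90 and 0.89. Plxna3 is a receptor of semaphorins and Pxdn a peroxidase of the extracellular matrix. Among the channel genes the closest were Cacna1d (r = 0.93) and Cacna1b (0.93), with ranks of 34 and 38 among all tested genes, and without sample 10 these values were 0.82 and 0.88. All points share the libraries, so sample 10 enters every one of these coefficients.

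Known partners of the channels were counted next, from lists named for their role. By edgeR, no gene of any list was called in any of the 7 comparisons. Of 10 genes that anchor or modulate sodium channels, such as ankyrin G, beta spectrin and the FHF proteins, 2 were lower at an unadjusted p under 0.05 with genotypes averaged (median −0.14), where 9.13% of all genes were lower and 9.77% higher. These were Fgf11, an FHF gene, with −0.17 (SE 0.0515, unadjusted p = 0.00306), and Sptbn4, the spectrin of the axon initial segment, with −0.21 (SE 0.0696, unadjusted p = 0.00749). Of 15 calcium channel modulators, 3 were higher and none lower (median 0.00), led by Stac2, an adaptor of L-type channels, with 0.22 (SE 0.0591, unadjusted p = 0.00151, adjusted p = 0.179 by edgeR), and Akap7, an anchor of protein kinase A, with 0.11 (SE 0.0441). Of 7 genes that tether calcium channels at release sites, 2 were lower (median −0.05), Rimbp2 with −0.22 (SE 0.0923) and Rims1 with −0.14 (SE 0.0654). All values of these lists include WTEE sample 10, and none is given without it.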

How the data were processed

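Reads were quality-checked with FastQC 0.11.3, trimmed with Skewer, aligned with STAR 2.5 to GRCm38 and counted with HTSeq 0.6.1p1 by the authors, with unique alignments of quality 10 or more and without regard to strand. What was deposited per gene symbol is a raw count of read pairs, with no normalisation. Lines that name no gene were left out (in the 21 libraries, ambiguous pairs amounted to 4.14% to 6.57% and pairs outside features to 8.41% to 15.7%). No molecular identifiers were used, so counts include PCR copies.

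The 21 libraries kept by the study were scaled by TMM and fitted in 1 model with edgeR 4.0.16 (R 4.3.3, filterByExpr, quasi-likelihood test), with p values adjusted by Benjamini-Hochberg over 20187 genes, while DESeq2 1.42.0 was the first alternative. A call needed an adjusted p under 0.05 together with a log2 fold change beyond 0.38 in either direction, as in the study. The 7 comparisons were WTEE against WTSH, KDEE against KDSH, KDSH against WTSH, WTEE against KDEE, the interaction, and enrichment and genotype averaged over the other factor. The script was tested on simulated counts. Lengths, positions and overlaps between genes came from GENCODE M21. This is not the annotation release that the study used for counting, and differences between them were not checked. Genes named are the highest of each subfamily, every called member and, in each comparison, the 3 with the smallest p, the 5 genes most like Cacna1g, and the 2 genes of each partner list with the smallest p. The averaged effect of enrichment also names all 8 members at an unadjusted p under 0.05. The values of 2 members are not reported here, although both stay in the fits and the counts over members. Members and lists were chosen with earlier results of these data known. Alternatives were other scaling, filters, models, covariates and libraries left out.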

Additional observations from a re-analysis of the deposited data

Results flagged for a closer look

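In 64 sets of 1 gene and 1 group, from the 16 channel genes given by library or named in a comparison, a sample lay far from the others of its group (Dixon's criterion) in 8. Chance alone flags about 1 in 20 such sets. Of the 8, 6 were WTEE sample 10, with 48.5 CPM for Cacna1c (next lowest WTEE value 123), 26.7 for Cacna1d (54.6), 52.8 for Cacna1g (86.0), 58.9 for Cacna1h (141), 55.9 for Cacna1i (91.5) and 226 for Scn8a (383). The others were WTSH sample 19 for Scn8a, with 378 CPM (next 437), and KDSH sample 1 for Cacng5, with 18.8 CPM (next 15.3).

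In the libraries that the study left out, 11 values of the highest gene of a subfamily lay above all kept values of their group, on a scale of 24 libraries. WTSH sample 4 had 187 CPM for Cacna1c (highest kept value 142), 582 for Cacna1e (542), 208 for Cacna2d1 (196) and 452 for Scn8a (428). WTSH sample 7 had 174 CPM for Cacna1c, 621 for Cacna1e, 173 for Cacna1h (170), 234 for Cacna2d1 and 482 for Scn8a. KDSH sample 6 had 268 CPM for Cacnb3 (265) and 163 for Cacng7 (149). Other values of the same genes lay below all kept ones. In KDSH sample 6 these were 97.2 CPM for Cacna1c (lowest kept value 131), 317 for Cacna1e (463), 146 for Cacna2d1 (175) and 342 for Scn8a (403), and for Cacng7 they were 127 CPM in WTSH sample 4 and 134 in WTSH sample 7 (145). Of all tested genes, 26.4%, 25.6% and 26.5% lay above and 29.7%, 28.6% and 25.6% below the kept range in WTSH samples 4 and 7 and KDSH sample 6. The part of structural RNA in these values was not tested.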

How the results depend on the processing

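No channel gene was called in any of the 7 comparisons under any of 221 combinations of a comparison and an alternative (DESeq2, RLE scaling, other filters, no fold threshold, all 24 libraries, only the groups compared, a robust fit, covariates, and each library left out). No named log2 fold change reversed its sign. The median over the members moved by less than the spread between libraries in 207 of 207. That spread was the pooled SD within groups of the library medians over members, and WTEE sample 10 enters it. A move below it can still change the sign. Without WTEE sample 10 the median went from −0.03 to 0.05 for WTEE against KDEE. For genotype averaged over housings it went from 0.04 to −0.0027. The number of members with an unadjusted p under 0.05 also moved. The share of all genes at that level was not counted under these settings, except without WTEE sample 10. There it was 22.1% for KDEE against KDSH, in place of 11.6%. The counts below therefore cannot tell a shift of the members from one of all genes. With all 24 libraries it was 11 for WTEE against WTSH (2 in the 21 libraries), 1 for KDSH against WTSH (0), 2 for WTEE against KDEE (1) and 13 for the averaged effect of enrichment (8). With only the groups compared in the model it was 0 for WTEE against WTSH, 13 for KDEE against KDSH (2) and 1 for KDSH against WTSH. With Ttr as a covariate it was 1 for KDEE against KDSH, 1 for KDSH against WTSH and 2 for the averaged effect, and DESeq2 gave 2 for WTEE against KDEE. With the level of long transcripts as a covariate, an alternative chosen after seeing the data, it was 0 for WTEE against WTSH and 3 for the averaged effect. The cause of these shifts was not tested. Leaving out each library in turn gave 1 to 3 for WTEE against WTSH, 1 to 14 for KDEE against KDSH (14 without WTEE sample 10), 0 to 1 for KDSH against WTSH, 0 to 2 for WTEE against KDEE, 0 to 1 for the interaction and 5 to 12 for the averaged effect (5 without WTSH sample 5 and 12 without WTEE sample 21, without KDSH sample 18 or without KDEE sample 20). Levels in RPKM moved beyond their spread in 7 of 32 cases, all 7 with the length of the longest transcript in place of all exons. No paired analysis was possible because no mouse number occurs in more than 1 group. With 4 to 6 mice a group, small changes of low genes such as Scn10a could not be told from 0. The same held for abundant genes. For WTEE against WTSH the SE of the log2 fold change was 0.181 for Cacna1c and 0.191 for Cacna1h. Without WTEE sample 10 it was 0.0762 and 0.105. The absence of a call does not show that a gene was unchanged.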

Other observations

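Relatives of the channels were examined as a further list, which held the leak channel and its partners, sperm calcium channels, the proton channel and endolysosomal channels. Of 14 symbols, 11 were in the files and 9 were tested. None was called by edgeR in any comparison. As for the partner lists, all values of this list come from fits that include WTEE sample 10. With genotypes averaged, 2 had an unadjusted p under 0.05 and both were lower, with a list median of −0.11, where 9.13% of all genes were lower and 9.77% higher at that level. Unc79, a partner of the sodium leak channel, had −0.24 (SE 0.1097, unadjusted p = 0.0393, adjusted p = 0.254 by edgeR), from 88.2 ± 7.01 CPM (SD, n = 4) in WTSH, 75.1 ± 20.4 (n = 6) in WTEE, 92.4 ± 4.43 (n = 5) in KDSH and 77.6 ± 8.51 (n = 6) in KDEE. Catsper2, a sperm calcium channel gene, had −0.21 in KDEE against KDSH (SE 0.0845, unadjusted p = 0.0239, adjusted p = 0.396 by edgeR), at 4.76 ± 0.533 CPM in KDSH and 4.14 ± 0.289 in KDEE.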
